A study of Homo sapiens with 16 samples.

Results

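The RAC exchange factors PREX1, PREX2, VAV1, VAV2, VAV3, TIAM1 and TIAM2 and the GTPase RAC1 were followed across BT474 tumours with and without knockdown of SHP2. They are 8 of the 18377 genes measured on a human gene array, each read by 1 transcript cluster. PREX1 was chosen by its measured difference in log2 signal between the hairpins against SHP2, so its values are given as a description with no test, and the other 7 genes were taken as its functional relatives. BT474 is a human breast cancer line with amplified ERBB2 (HER2). All tumours grew from BT474 cells placed in the mammary fat pad of mice lacking full immunity, and the cells carried a lentiviral vector inducible by doxycycline. The vector expressed the hairpin SHP2 miR1 (7 tumours), SHP2 miR2 (3 tumours) or CTRL miR (6 tumours), and the control tumours received the same doxycycline, 2 g per L of drinking water for 30 days once tumours had formed. The tumours thus model 1 cell line in a host without a full immune system, and the labels name neither the promoter of the vector nor the animal behind each tumour. P-values therefore measure the spread between these tumours.

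RAC GTPases are switches that bind GTP when active and GDP when resting, and in their active form they drive actin assembly at the cell edge, ruffling and migration. Exchange factors turn them on by releasing GDP, GTPase-activating proteins turn them off, and GDIs hold them in the cytosol. PREX1 and PREX2 are switched on by the PI3K lipid PIP3 together with G protein beta gamma subunits, the VAV proteins by tyrosine phosphorylation below receptors, and the TIAM proteins by membrane lipids and scaffold proteins. In breast cancer cells PREX1 is known as an exchange factor that links ERBB receptors and chemokine receptors to RAC.

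The start regions of PREX1 and TIAM1 are shown because these were the 2 genes among the 8 with the lowest values in SHP2 miR2 tumours relative to CTRL miR tumours. The sequences are the 250 bases before the annotated start in RefSeq (build GRCh38.p14, minus strand for both, at chr20:48828000-48828249 for PREX1 and at chr21:31559088-31559337 for TIAM1). They are written 5′ to 3′ in the direction of transcription, and capitals mark the GC box GGGCGG or its complement CCGCCC, searched on both strands with overlaps allowed.
PREX1: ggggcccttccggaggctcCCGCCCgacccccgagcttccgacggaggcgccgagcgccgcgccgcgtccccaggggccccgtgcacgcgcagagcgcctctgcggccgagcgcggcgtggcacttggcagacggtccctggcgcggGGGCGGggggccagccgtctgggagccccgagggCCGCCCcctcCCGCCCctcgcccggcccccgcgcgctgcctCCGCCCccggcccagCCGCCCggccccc
TIAM1: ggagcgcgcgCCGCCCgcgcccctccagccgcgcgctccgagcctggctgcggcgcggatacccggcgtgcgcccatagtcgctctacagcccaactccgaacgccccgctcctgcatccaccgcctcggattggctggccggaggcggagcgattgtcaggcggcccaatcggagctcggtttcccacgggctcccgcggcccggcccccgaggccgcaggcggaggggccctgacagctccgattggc
The PREX1 window held 6 GC boxes and was 84.8% G and C, and the TIAM1 window held 1 GC box and was 75.6% G and C. Of 34788 RefSeq windows of this length, 42.6% held at least 1 GC box and 2.19% held at least 6, and the median G and C content was 58.0%. Neither window held the E-box CACGTG, which 6.31% of the windows held. These matches describe the letters only.

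Values are log2 signals, in which 1 unit is a doubling. The targeted gene PTPN11, which encodes SHP2, had 6.59 to 7.18 in SHP2 miR1 tumours, 6.35 to 6.53 in SHP2 miR2 tumours and 8.23 to 8.61 in CTRL miR tumours, so every knockdown tumour lay below every control. The controls were not uniform. IRS4, an adaptor of insulin signalling, had 2.97 to 3.91 in the 10 knockdown tumours, 3.16 and 3.77 in CTRL miR tumours 2 and 5, and 7.14 to 8.29 in CTRL miR tumours 1, 3, 4 and 6. Values of CTRL miR tumours 2 and 5 are therefore also shown apart. The arrays further fell into 2 sets by the mean of 5 noncoding RNAs, which was 8.19 to 8.39 in set A (7 arrays, SHP2 miR1 tumours 1 to 4 and CTRL miR tumours 1 to 3) and 6.81 to 7.21 in set B (the other 9, with all SHP2 miR2 tumours). These sets were read from the profiles, not from the labels. Values spread less on the arrays of SHP2 miR2 tumours 1 and 3 (SD across clusters 1.89) than on the other 14 (1.95 to 2.07). The 8 luminal epithelial markers had a mean log2 signal of 9.91 to 10.14 in SHP2 miR1, 9.94 to 10.18 in SHP2 miR2 and 9.40 to 9.99 in CTRL miR tumours. These means join markers that moved in opposite directions. For SHP2 miR1 minus SHP2 miR2, limma called 3 of the 8 higher and 2 lower, where 14.3% of all genes were called higher and 8.22% lower.

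PREX1 (cluster 8066848) had its highest mean with SHP2 miR1 and its lowest with SHP2 miR2, and only SHP2 miR2 stood apart from the controls. In SHP2 miR1 tumours 1 to 7 its log2 signal was 8.88, 8.64, 8.75, 8.78, 8.24, 7.90 and 8.02. In SHP2 miR2 tumours 1 to 3 it was 5.27, 5.50 and 5.44, and in CTRL miR tumours 1 to 6 it was 7.96, 8.73, 7.64, 7.33, 8.08 and 7.03. Every SHP2 miR2 tumour lay below all other tumours, while the SHP2 miR1 and CTRL miR tumours overlapped.

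The group means were 8.46 ± 0.40 (SD, n = 7) with SHP2 miR1, 5.40 ± 0.12 (n = 3) with SHP2 miR2 and 7.79 ± 0.60 (n = 6) with CTRL miR. The difference of SHP2 miR1 minus SHP2 miR2 was 3.05 ± 0.27 (SE of the difference, given as a description and not as a test), an 8.31-fold higher signal with SHP2 miR1. It was the 6th highest of the 18377 differences between the hairpins. SHP2 miR2 minus CTRL miR was -2.39 ± 0.28, a ratio of 0.191, and SHP2 miR1 minus CTRL miR was 0.66 ± 0.22. In order of level, SHP2 miR1 and CTRL miR are neighbours whose ranges overlap, and SHP2 miR2 lies below both by more than their spread. By size the 3 differences ranked 8th, 17th and 372nd among all genes. Both contrasts against CTRL miR use the same 6 controls.

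The controls bear on the smaller of these differences. CTRL miR tumours 2 and 5 had 8.73 and 8.08, and the other 4 controls 7.03 to 7.96. Against tumours 2 and 5 alone, SHP2 miR1 differed by 0.053 and SHP2 miR2 by -3.001. Against tumours 1, 3, 4 and 6 alone, a setting chosen after seeing the data, SHP2 miR1 differed by 0.97 and SHP2 miR2 by -2.08. The level also went with the array set, since SHP2 miR1 tumours of set A had 8.64 to 8.88 and those of set B 7.90 to 8.24. Within set B the 3 SHP2 miR1 tumours lay 2.65 above the SHP2 miR2 tumours and 0.57 above the controls, and SHP2 miR2 lay at -2.08 relative to the controls. Within set A, SHP2 miR1 lay 0.65 above the controls. These are levels in whole tumour RNA, in which fewer cells of a type and less RNA per cell cannot be told apart.

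**Figure D1:**
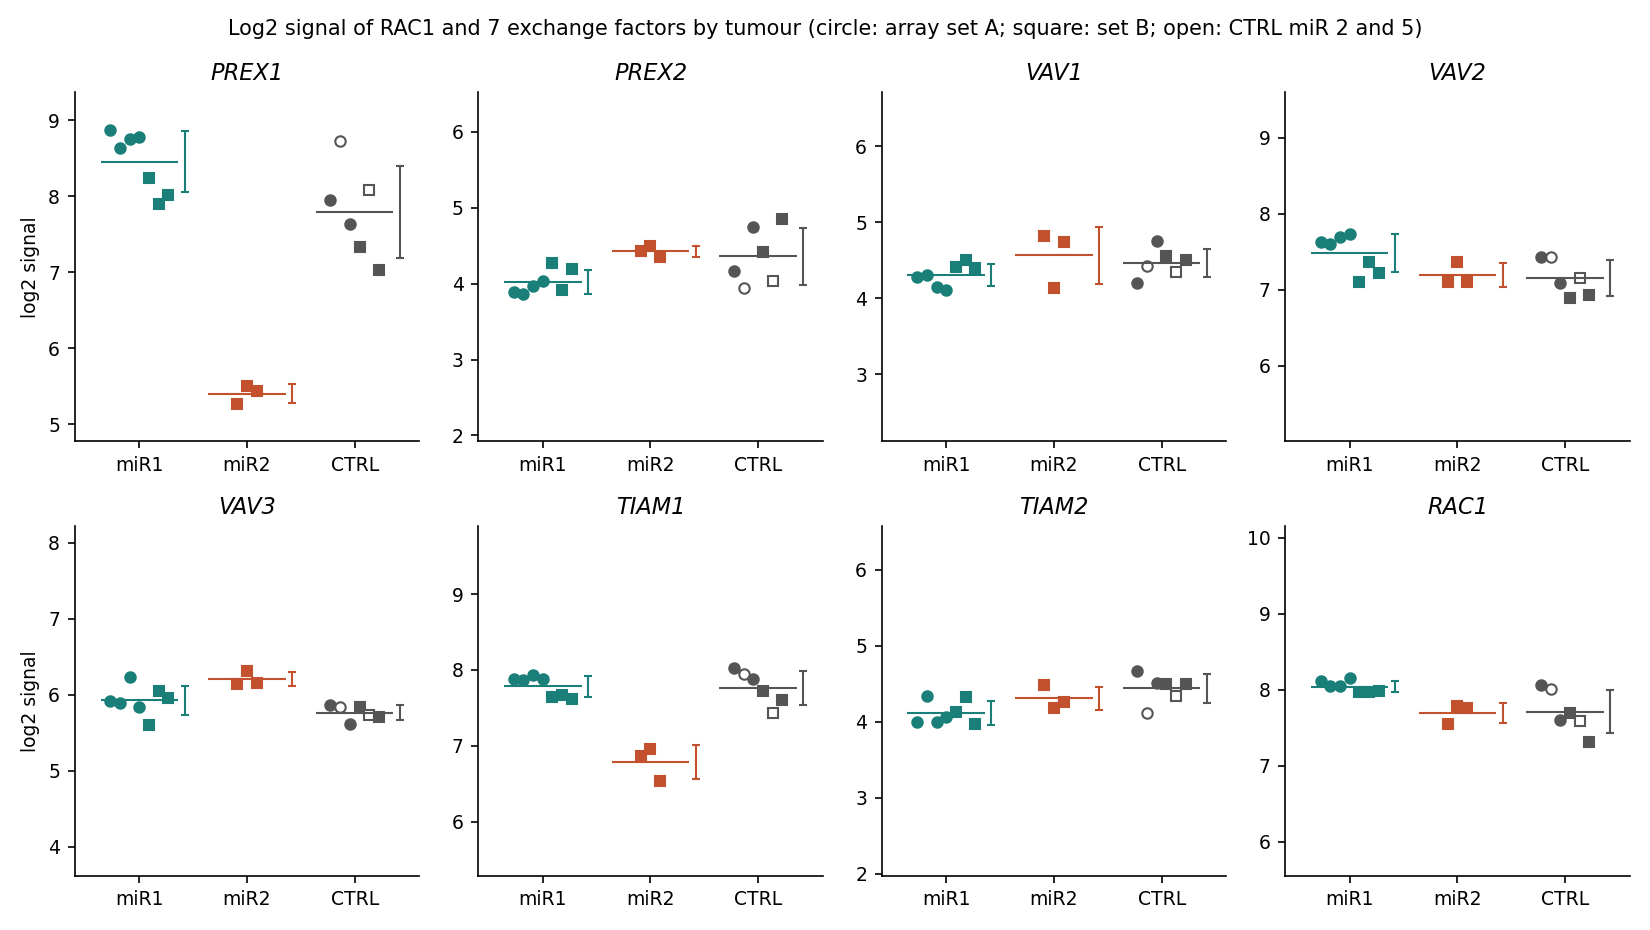
Log2 signal (vertical axis, each panel spanning the same number of log2 units) of RAC1 and 7 exchange factors in SHP2 miR1 (n = 7), SHP2 miR2 (n = 3) and CTRL miR (n = 6) tumours. Each point is 1 tumour, circles are array set A, squares array set B and open symbols CTRL miR tumours 2 and 5, with horizontal lines at group means and bars of 1 SD. The SHP2 miR2 points of PREX1 (5.27 to 5.50) and TIAM1 (6.54 to 6.96) lie below all other tumours.

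TIAM1 (cluster 8069880), an exchange factor selective for RAC and named for invasion of T lymphoma cells, was also lower with SHP2 miR2. Its log2 signal was 6.87, 6.96 and 6.54 in SHP2 miR2 tumours, against 8.03, 7.94, 7.88, 7.72, 7.44 and 7.60 in CTRL miR tumours, and no tumour of one group reached the other. The fall was 0.98 on the log2 scale (SE 0.13), a ratio of 0.507, with a limma adjusted p of 5.475e-05 over all genes, in a contrast that called 30.0% of them. In SHP2 miR1 tumours TIAM1 had 7.88, 7.87, 7.93, 7.88, 7.65, 7.67 and 7.61, all above the SHP2 miR2 tumours. SHP2 miR1 exceeded SHP2 miR2 by 0.996 ± 0.13 (limma adjusted p = 3.827e-05), while SHP2 miR1 minus CTRL miR was 0.017 with an interval of -0.20 to 0.23 (limma adjusted p = 0.9646). TIAM1 passed the test under each of the alternatives tried for SHP2 miR2 minus CTRL miR (differences from -1.11 to -0.80, limma adjusted p from 4.023e-06 to 0.004559) and for SHP2 miR1 minus SHP2 miR2 (0.82 to 1.16, from 6.548e-06 to 0.004316).

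TIAM2 (cluster 8122933), the close relative of TIAM1 that is known best from neurons, had a low signal in every tumour. It lay below the array median on all 16 arrays and averaged 4.12 with SHP2 miR1, 4.31 with SHP2 miR2 and 4.44 with CTRL miR. SHP2 miR1 minus CTRL miR was -0.32 ± 0.10 (limma adjusted p = 0.06465), and SHP2 miR2 minus CTRL miR was -0.13 ± 0.12 (adjusted p = 0.4203). The first of these passed without CTRL miR tumour 2 (-0.38, limma adjusted p = 0.01131) and without tumour 5 (-0.34, limma adjusted p = 0.04235).

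PREX2 (cluster 8146794) is the close paralogue of PREX1. It too lay below the array median on all 16 arrays, with 3.89, 3.86, 3.96, 4.04, 4.27, 3.91 and 4.20 in SHP2 miR1 tumours, 4.43, 4.49 and 4.35 in SHP2 miR2 tumours, and 4.16, 3.95, 4.74, 4.42, 4.04 and 4.85 in CTRL miR tumours. Every SHP2 miR1 tumour was below every SHP2 miR2 tumour, the opposite order to PREX1. The difference of -0.40 ± 0.16 between them did not pass (limma adjusted p = 0.07576), nor did -0.34 ± 0.13 for SHP2 miR1 minus CTRL miR (adjusted p = 0.1543) or 0.063 ± 0.17 for SHP2 miR2 minus CTRL miR (adjusted p = 0.7844). CTRL miR tumours 2 and 5 had 3.95 and 4.04, against 4.16 to 4.85 in the other controls. Without tumour 2, SHP2 miR1 minus CTRL miR was -0.42 and passed (limma adjusted p = 0.03828).

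Of the VAV proteins, only VAV3 passed in the fit of all tumours. VAV3 (cluster 7918157), an exchange factor below receptor tyrosine kinases, had 6.14, 6.31 and 6.15 in SHP2 miR2 tumours, against 5.86, 5.84, 5.61, 5.84, 5.73 and 5.71 in CTRL miR tumours. All SHP2 miR2 tumours lay above all controls, and the rise was 0.44 ± 0.12, or 1.36-fold (limma adjusted p = 0.00935). Against CTRL miR tumours 2 and 5 alone it was 0.42 and did not pass (limma adjusted p = 0.1487). The 7 SHP2 miR1 tumours ran from 5.60 to 6.23 and overlapped both groups. The differences were 0.16 for SHP2 miR1 minus CTRL miR (limma adjusted p = 0.3756) and -0.28 for SHP2 miR1 minus SHP2 miR2 (adjusted p = 0.07754). The difference between the hairpins passed without SHP2 miR1 tumour 3 (-0.33, limma adjusted p = 0.04225).

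VAV2 (cluster 8164967), the broadly expressed VAV protein, had 7.63, 7.61, 7.70, 7.74, 7.10, 7.36 and 7.22 in SHP2 miR1 tumours and 7.10, 7.37 and 7.10 in SHP2 miR2 tumours. In CTRL miR tumours it had 7.44, 7.43, 7.08, 6.89, 7.16 and 6.93. The groups overlapped, and the 4 SHP2 miR1 tumours of array set A were the highest of all. SHP2 miR1 minus CTRL miR was 0.33 ± 0.12 (limma adjusted p = 0.1414) and passed with the array set as a block (0.30, adjusted p = 0.03645). SHP2 miR2 minus CTRL miR was 0.037 (adjusted p = 0.8663).

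VAV1 (cluster 8025076) is the VAV protein of blood cells. It lay below the array median on all 16 arrays, ran from 4.11 to 4.50 in SHP2 miR1 and from 4.21 to 4.75 in CTRL miR tumours, and had 4.82, 4.14 and 4.74 in SHP2 miR2 tumours. In no contrast did it pass, with -0.16 for SHP2 miR1 minus CTRL miR (limma adjusted p = 0.5136), 0.10 for SHP2 miR2 minus CTRL miR (0.5974) and -0.26 for SHP2 miR1 minus SHP2 miR2 (0.1703). Without SHP2 miR2 tumour 2 the last was -0.47 and passed (limma adjusted p = 0.0141). The mean log2 signal of 15 leukocyte markers was 5.05, 4.61 and 5.02 in the same 3 SHP2 miR2 tumours, so tumour 2 was the lowest in both.

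RAC1 (cluster 8131406) is the GTPase on which these exchange factors act. Its log2 signal was 8.12, 8.05, 8.04, 8.15, 7.97, 7.97 and 7.99 in SHP2 miR1 tumours, 7.55, 7.79 and 7.76 in SHP2 miR2 tumours, and 8.06, 8.01, 7.60, 7.69, 7.59 and 7.31 in CTRL miR tumours. All SHP2 miR1 tumours lay above all SHP2 miR2 tumours, and the controls spanned both. SHP2 miR1 minus SHP2 miR2 was 0.34 ± 0.13 (limma adjusted p = 0.06121), SHP2 miR1 minus CTRL miR was 0.33 ± 0.10 (adjusted p = 0.07368), and SHP2 miR2 minus CTRL miR was -0.0090 with an interval of -0.29 to 0.27 (adjusted p = 0.9636). RAC1 passed in 8 of 25 alternatives for SHP2 miR1 minus SHP2 miR2, among them without CTRL miR tumour 1 (limma adjusted p = 0.04453), 2 (0.04828) or 6 (0.03931). It passed in 5 of 28 for SHP2 miR1 minus CTRL miR, among them without CTRL miR tumour 1 (0.40, limma adjusted p = 0.04753) or 2 (0.39, adjusted p = 0.0183).

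Counted together without PREX1, 2 of the 7 genes passed for SHP2 miR2 minus CTRL miR, 1 higher (VAV3) and 1 lower (TIAM1), against 30.0% of all genes called, 11.8% higher and 18.2% lower. For SHP2 miR1 minus SHP2 miR2, 1 of 7 passed, TIAM1, which was higher, against 22.5% of all genes called, 14.3% higher and 8.22% lower. For SHP2 miR1 minus CTRL miR, limma called 0 of 7, against 4.76% of all genes (1.38% higher and 3.38% lower). In that contrast 4 (PREX2, VAV2, TIAM2 and RAC1) had an unadjusted limma p under 0.05, as did 17 of the 31 genes in the list of other exchange factors described below. The share of all genes under this unadjusted threshold was not counted, so neither the 4 nor the 17 can be read as a result about these genes. The median differences of the 7 genes were 0.037, -0.19 and 0.017 in the same order of contrasts, against 0.023, -0.0042 and 0.018 over all genes. Counts of 7 genes are too few to set them apart from these shares.

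**Figure D2:**
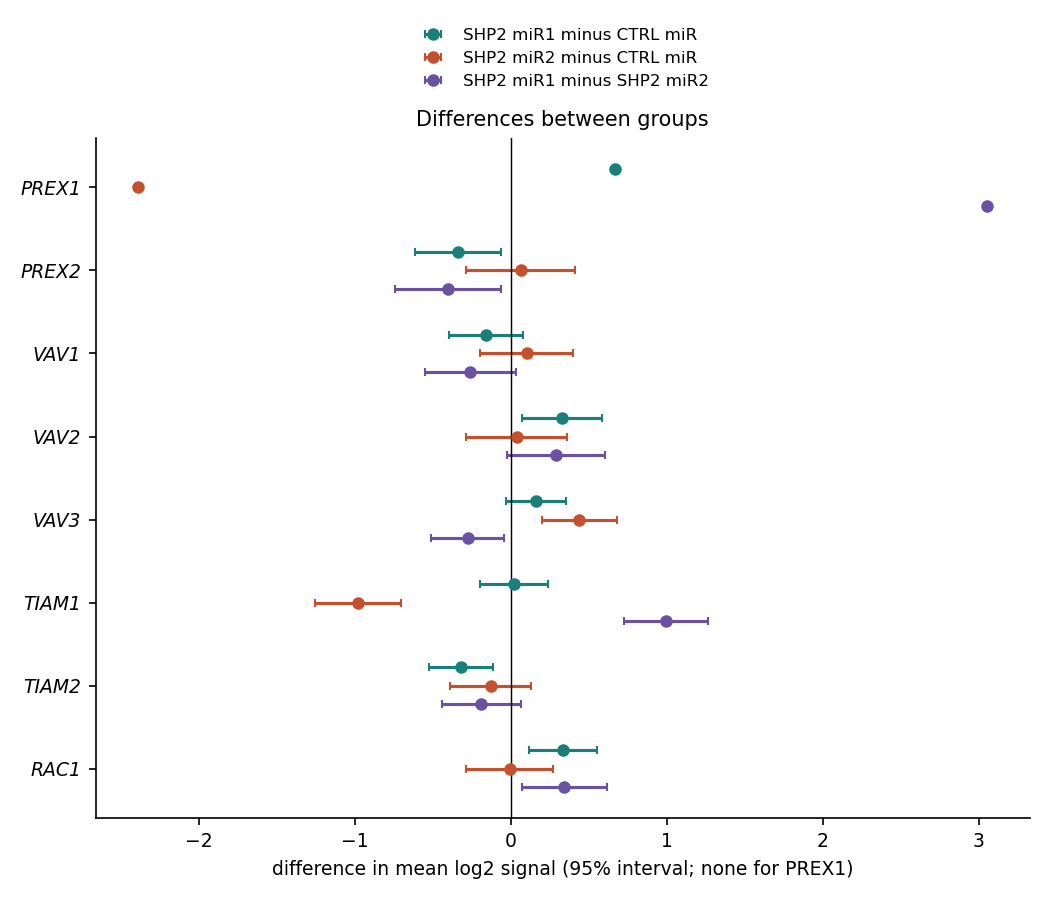
Differences in mean log2 signal (horizontal axis) of the 8 genes, as points with 95% intervals from the limma fit (none for PREX1, which was chosen by its difference), for SHP2 miR1 minus CTRL miR, SHP2 miR2 minus CTRL miR and SHP2 miR1 minus SHP2 miR2. PREX1 (-2.39 and 3.05) and TIAM1 (-0.98 and 0.996) are far from 0 in the contrasts that hold SHP2 miR2.

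Genes whose profile over the 16 tumours was most like that of PREX1 were named by Pearson's r, as a description without a test, since the 3 SHP2 miR2 tumours sit apart and weigh on every such value. The 6 highest were SLC7A5 (r = 0.975), a transporter of large neutral amino acids, TSKU (0.974), a secreted leucine-rich repeat protein, GREB1 (0.974), a gene induced by oestrogen receptor, GRIK3 (0.966), a glutamate receptor subunit, AARS1 (0.966), the alanine tRNA synthetase, and AFF3 (0.964), a nuclear transcription factor. Over the 13 tumours without SHP2 miR2, r was 0.962 for GREB1, 0.917 for SLC7A5, 0.906 for GRIK3, 0.902 for TSKU, 0.864 for AARS1 and 0.811 for AFF3. GREB1 averaged 9.22 in SHP2 miR1, 5.69 in SHP2 miR2 and 8.86 in CTRL miR tumours, and SLC7A5 averaged 9.05, 6.86 and 8.74 in the same order. In CTRL miR tumours 2 and 5 GREB1 had 9.50 and 9.13, above the 8.43 to 8.99 of the other controls, as PREX1 did.

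The 3 lowest values of r belonged to CSMD3 (-0.944), a large membrane protein with CUB and sushi domains, DEGS1 (-0.924), a desaturase of ceramide synthesis, and NR4A3 (-0.918), an orphan nuclear receptor. Among the exchange factors, TIAM1 had r = 0.898 with PREX1 over 16 tumours but 0.471 over the 13 without SHP2 miR2. VAV2 had 0.553 and 0.880, and RAC1 0.616 and 0.826, over the same 2 choices of tumours. PREX2 ran against PREX1 both ways (-0.628 and -0.823). These points share array sets as well as groups.

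**Figure D3:**
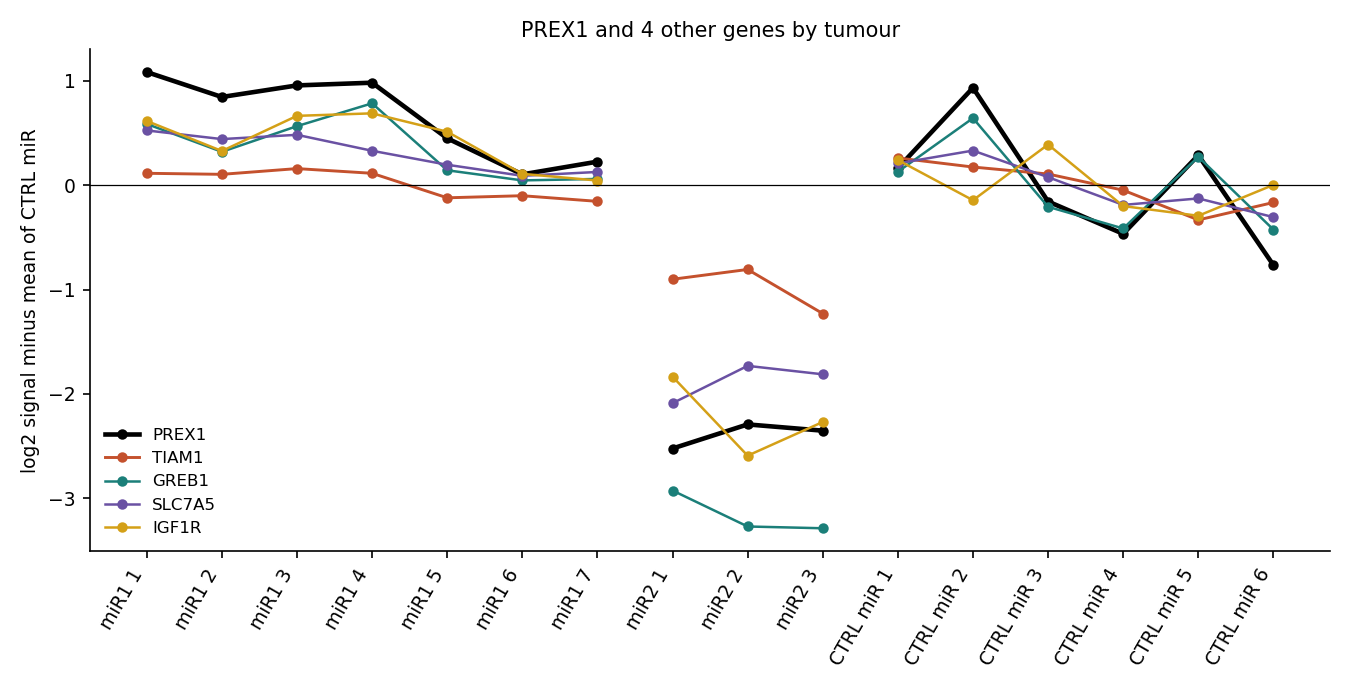
Log2 signal minus the mean of the 6 CTRL miR tumours (vertical axis) for PREX1, TIAM1, GREB1, SLC7A5 and IGF1R in each of the 16 tumours (horizontal axis, SHP2 miR1, SHP2 miR2, then CTRL miR). Lines join tumours of a group only to guide the eye. All 5 genes lie below their control mean in the 3 SHP2 miR2 tumours, and among the controls PREX1 and GREB1 are highest in CTRL miR tumour 2.

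The genes next to PREX1 on chromosome 20 did not follow it as a block. The 5 nearest measured genes on each side, in RefSeq order, were SLC2A10, EYA2, ZMYND8, LOC100131496 and SULF2 before it and ARFGEF2, CSE1L, STAU1, DDX27 and ZNFX1 after it. For SHP2 miR2 minus CTRL miR their differences ran from -0.80 to 0.49 with a median of 0.058, against -2.39 for PREX1. Of the 10, limma called 1 lower and 1 higher, where 18.2% of all genes were called lower and 11.8% higher. The lower one was the adjacent SULF2, which encodes a sulfatase that trims heparan sulfate outside the cell. SULF2 had 6.72, 6.68 and 6.52 in SHP2 miR2 tumours, 7.28 to 7.71 in SHP2 miR1 tumours and 6.89 to 8.06 in CTRL miR tumours. It fell by 0.80 ± 0.19 relative to CTRL miR (limma adjusted p = 0.004174) and SHP2 miR1 exceeded SHP2 miR2 by 0.88 ± 0.18 (limma adjusted p = 0.002651), under every alternative tried as well. The higher one was ZNFX1, a helicase-like zinc finger protein (0.49 ± 0.12, limma adjusted p = 0.005331), which did not pass against CTRL miR tumours 2 and 5 alone (0.30, limma adjusted p = 0.269). For SHP2 miR1 minus SHP2 miR2, 2 of the 10 were called, both higher, where 14.3% of all genes were called higher. Beside SULF2 this was the RNA helicase DDX27 (0.42 ± 0.11, limma adjusted p = 0.01277). The DDX27 call was lost without SHP2 miR2 tumour 1 (adjusted p = 0.0847) or 3 (adjusted p = 0.07203) and with quantile normalization (0.23, adjusted p = 0.1428). For SHP2 miR1 minus CTRL miR, 1 of the 10 passed, ZNFX1 (0.33, limma adjusted p = 0.04387), where 4.76% of all genes were called. That call was lost in 19 of 28 alternatives. Among them were leaving out SHP2 miR2 tumour 1 (limma adjusted p = 0.05064) and CTRL miR tumours 2 and 5 alone as controls (0.145, adjusted p = 0.903).

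**Figure D4:**
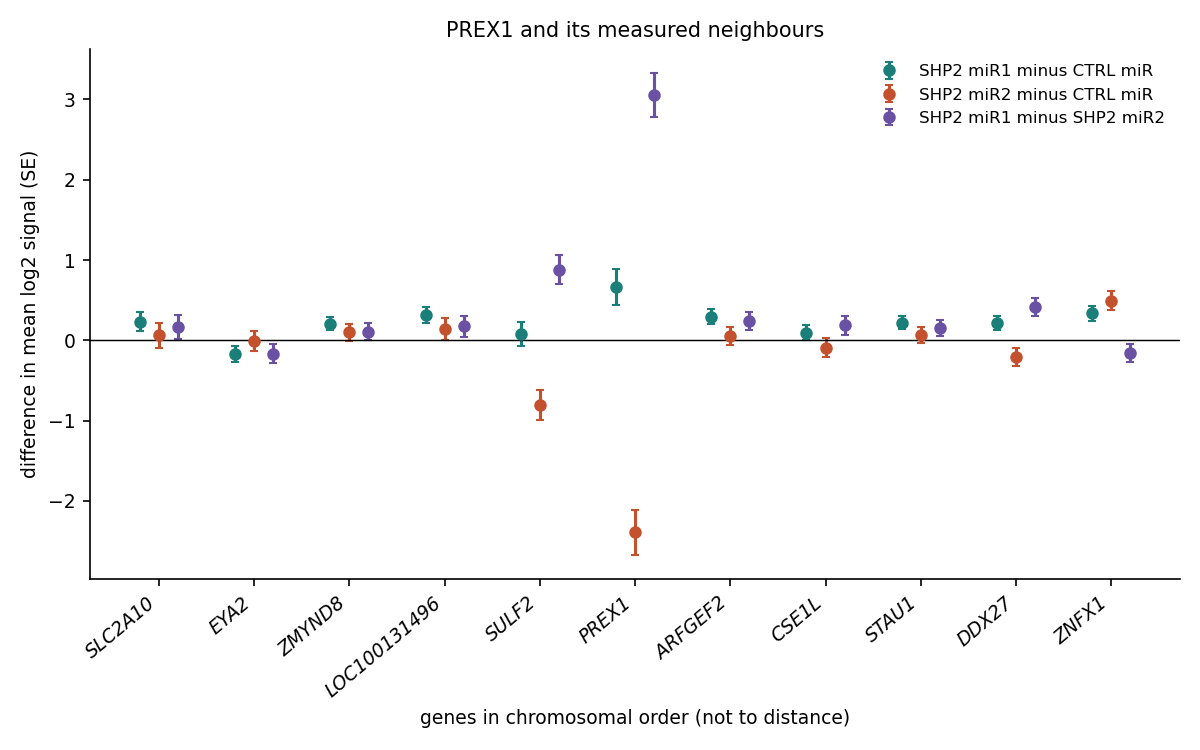
Differences in mean log2 signal with SE bars (vertical axis) for PREX1 and the 10 measured genes nearest to it, placed in chromosomal order and not by distance. PREX1 was chosen by its difference, so its bars are a description only, and it lies at -2.39 and 3.05 in the contrasts that hold SHP2 miR2. In these contrasts SULF2 stands off 0 (-0.80 and 0.88), and the other 9 genes stay between -0.20 and 0.49.

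Receptors known to act upstream of PREX1 or VAV proteins held the largest single difference among the pathway genes named here. Of 13 measured, 1 rose and 1 fell for SHP2 miR2 minus CTRL miR, where 11.8% of all genes were called higher and 18.2% lower, and the list median was 0.091 against 0.023 over all genes. IGF1R, the receptor of insulin-like growth factors, had 5.32, 4.56 and 4.89 in SHP2 miR2 tumours and 7.20 to 7.84 in SHP2 miR1 tumours, against 6.86 to 7.55 in CTRL miR tumours. It fell by 2.23 ± 0.18 (limma adjusted p = 1.092e-07), and SHP2 miR1 exceeded SHP2 miR2 by 2.66 ± 0.18 (limma adjusted p = 5.115e-09). Both held under each alternative tried. ERBB4, the neuregulin receptor of the ERBB family, had 7.25 to 7.43 in SHP2 miR1 tumours, 7.26, 7.73 and 7.47 in SHP2 miR2 tumours and 6.63 to 6.94 in CTRL miR tumours. It was higher with SHP2 miR1 by 0.64 ± 0.08 (limma adjusted p = 0.0004301) and with SHP2 miR2 by 0.77 ± 0.10 (adjusted p = 5.88e-05). The first did not pass within set A (0.60, limma adjusted p = 0.1336) or set B alone (0.67, adjusted p = 0.1993). LPAR1, a receptor of lysophosphatidic acid, fell by 0.41 ± 0.10 with SHP2 miR1 (limma adjusted p = 0.02015), and the call was lost without CTRL miR tumour 3 (adjusted p = 0.06467), 4 (0.05268) or 6 (0.06902), and against CTRL miR tumours 2 and 5 alone it differed by -0.21 (0.8548).

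The list around PI3K and G protein beta gamma subunits, the inputs that switch PREX1 on, held genes that moved in both directions. It also held the lipid phosphatases INPP5D, INPPL1 and INPP4B and the protein kinase A subunits PRKACA and PRKAR1A, which are not such inputs. INPP4B is among the 3 that fell with SHP2 miR2, so the counts are not counts of inputs alone. Of 22 measured, 5 rose and 3 fell for SHP2 miR2 minus CTRL miR (30.0% of all genes called), 4 were higher and 2 lower for SHP2 miR1 minus SHP2 miR2 (22.5% of all genes), and 2 rose for SHP2 miR1 minus CTRL miR (4.76% of all genes). The first count became 2 higher and 2 lower with quantile normalization and 2 lower against CTRL miR tumours 2 and 5 alone. The second became 2 higher and 3 lower with quantile normalization. The third became 3 higher and 2 lower with array weights. It became 0 with the replicate number as a block, within either array set alone and against CTRL miR tumours 2 and 5 alone. GNG12, a gamma subunit of G proteins, had 6.47, 6.63 and 5.99 in SHP2 miR2 tumours and 7.39 to 7.77 in SHP2 miR1 tumours, against 7.44 to 7.91 in CTRL miR tumours. It fell by 1.26 ± 0.14 relative to CTRL miR (limma adjusted p = 6.002e-06), and all SHP2 miR2 tumours lay below all others. INPP4B, a phosphatase that degrades a PI3K lipid, had 7.74, 7.69 and 7.63 in SHP2 miR2 tumours, 8.74 to 8.98 in SHP2 miR1 tumours and 8.22 to 8.76 in CTRL miR tumours. It fell by 0.80 ± 0.12 with SHP2 miR2 (limma adjusted p = 0.0001344) and SHP2 miR1 exceeded SHP2 miR2 by 1.18 ± 0.12 (adjusted p = 1.255e-06). PIK3R5, a regulatory subunit of the PI3K of blood cells, rose by 0.60 ± 0.16 with SHP2 miR2 (limma adjusted p = 0.008839), which was lost without SHP2 miR2 tumour 1 (adjusted p = 0.0629) and against CTRL miR tumours 2 and 5 alone (0.2052). PIK3R3, a regulatory subunit, rose by 0.45 ± 0.12 (limma adjusted p = 0.008459) and did not pass against those 2 controls (0.22, adjusted p = 0.4126).

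The list of other RAC exchange factors held 31 measured genes, not all of which act on RAC themselves. ELMO1, ELMO2 and ELMO3 are partners of DOCK exchange factors, and ITSN1, FGD5 and ARHGEF25 act on related GTPases. Of the 31, 3 rose and 4 fell for SHP2 miR2 minus CTRL miR (list median -0.084 against 0.023 over all genes, 30.0% of which were called). Of the same list, 6 were higher and 3 lower for SHP2 miR1 minus SHP2 miR2 (22.5% of all genes called), and for SHP2 miR1 minus CTRL miR 2 rose and 2 fell (4.76% of all genes). The last count became 9 higher and 5 lower with array weights and 0 within either array set alone, and the first became 2 higher and 0 lower against CTRL miR tumours 2 and 5 alone. KALRN, known for shaping dendritic spines in neurons, had 5.97, 6.34 and 6.02 in SHP2 miR2 tumours, against 5.21 to 5.55 in CTRL miR tumours, and rose by 0.77 ± 0.11 (limma adjusted p = 6.056e-05). DOCK10, an exchange factor abundant in lymphocytes, had 4.72, 4.40 and 4.57, against 3.50 to 3.99, and rose by 0.79 ± 0.11 (limma adjusted p = 6.421e-05). Both held under each alternative that tested them. DOCK10 was not tested in the setting that left out genes of low mean. DOCK2, the RAC exchange factor of leukocytes, rose by 0.68 ± 0.13 (limma adjusted p = 0.001036), and not against CTRL miR tumours 2 and 5 alone (0.49, adjusted p = 0.1007). ECT2, which acts at cell division, fell by 0.58 ± 0.16 (limma adjusted p = 0.01106), a call lost without SHP2 miR2 tumour 1 (adjusted p = 0.06677) or 3 (0.09975) and against CTRL miR tumours 2 and 5 alone (0.2047).

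Among 13 RAC and related GTPases beside RAC1, 1 rose and 2 fell for SHP2 miR2 minus CTRL miR, where 11.8% of all genes were called higher and 18.2% lower. The balance turned with quantile normalization, which gave 5 higher and 1 lower. Array weights gave 5 higher and 3 lower, and against CTRL miR tumours 2 and 5 alone limma called 0. Of these GTPases, 1 rose and 1 fell for SHP2 miR1 minus CTRL miR (4.76% of all genes called). RAC2, the RAC of blood cells, rose by 0.53 ± 0.13 with SHP2 miR2 (limma adjusted p = 0.005013). That call was lost without SHP2 miR2 tumour 3 (0.42, limma adjusted p = 0.05485), in set B alone (0.47, adjusted p = 0.06348) and against CTRL miR tumours 2 and 5 alone (0.57, adjusted p = 0.06698). RHOA, which drives contractile actin fibres, fell by 0.38 ± 0.09 (limma adjusted p = 0.004174), and not against CTRL miR tumours 2 and 5 alone (-0.28, adjusted p = 0.2298). RND2, a relative of these proteins that binds GTP without cleaving it, fell by 1.17 ± 0.25 with SHP2 miR1 (limma adjusted p = 0.01429), yet differed by -0.18 from CTRL miR tumours 2 and 5 alone (adjusted p = 0.9056). RHOU, which is related to CDC42, rose by 0.51 ± 0.14 with SHP2 miR1 (limma adjusted p = 0.03753), and differed by 0.074 from those 2 controls (adjusted p = 0.9557). The RHOU call was also lost without any 1 of CTRL miR tumours 1, 3, 4 and 6 (limma adjusted p from 0.07908 to 0.1149) or of SHP2 miR1 tumours 1, 2, 3 and 6 (from 0.05182 to 0.08191). Within a single array set neither RND2 (limma adjusted p = 0.2238 in set A and 0.3074 in set B) nor RHOU (0.2684 and 0.4093) passed.

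GDIs and GTPase-activating proteins restrain RAC, and their list held 17 measured genes, among them the formin FMNL1, which is neither. Of the 17, 4 rose and 3 fell for SHP2 miR2 minus CTRL miR (list median -0.16 against 0.023 over all genes, with 11.8% of all genes called higher and 18.2% lower). For SHP2 miR1 minus CTRL miR limma called 0, against 4.76% of all genes. There 2 had an unadjusted limma p under 0.05, a threshold at which the share of all genes was not counted. RACGAP1, which works with ECT2 at cell division, fell by 0.65 ± 0.13 with SHP2 miR2 (limma adjusted p = 0.001184). ARHGAP24, a GTPase-activating protein for RAC bound to filamin, fell by 0.59 ± 0.11 (limma adjusted p = 0.0007917). ARHGDIB, a GDI abundant in blood cells, fell by 0.50 ± 0.16 (limma adjusted p = 0.02598), a call lost without SHP2 miR2 tumour 1 (adjusted p = 0.1378) or 3 (0.1339). ARHGAP25, a GTPase-activating protein for RAC in leukocytes, rose by 0.48 ± 0.12 (limma adjusted p = 0.005108). Against CTRL miR tumours 2 and 5 alone, none of these 4 passed (limma adjusted p from 0.05292 for ARHGAP24 to 0.1904 for ARHGDIB), with differences of -0.53 for RACGAP1, -0.52 for ARHGAP24, -0.52 for ARHGDIB and 0.40 for ARHGAP25. In set B alone ARHGAP25 (0.41, limma adjusted p = 0.075) and ARHGDIB (-0.37, adjusted p = 0.1629) did not pass.

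The list of RAC effectors, named for the PAK and WAVE branches that pass its signal to actin, held 19 measured genes. NOX1, CYBA, PARD6A, PARD6B and IQGAP1 in this list belong to neither branch. Of the 19, 3 rose and 2 fell for SHP2 miR2 minus CTRL miR, against 30.0% of all genes called. With the arrays centred 1 rose and 2 fell. NCKAP1L, the WAVE complex subunit of blood cells, had 5.54, 4.56 and 4.84 in SHP2 miR2 tumours, against 3.60 to 4.20 in CTRL miR tumours, and rose by 1.08 ± 0.17 (limma adjusted p = 0.0002602). The call held under each alternative that tested NCKAP1L, which the setting without genes of low mean did not. WASF3, a WAVE protein, fell by 0.53 ± 0.15 (limma adjusted p = 0.01511), a call lost without SHP2 miR2 tumour 1 (adjusted p = 0.08412) or 3 (0.08435). LIMK1, the kinase that inactivates cofilin, fell by 0.46 ± 0.14 (limma adjusted p = 0.02114), a call lost without SHP2 miR2 tumour 2 (adjusted p = 0.06215) or 3 (0.08946). CYFIP1, the WAVE complex subunit that binds RAC1, was 0.36 ± 0.10 higher with SHP2 miR1 than with SHP2 miR2 (limma adjusted p = 0.01534), a call lost without SHP2 miR2 tumour 1 (adjusted p = 0.05957) or 3 (0.1272) and with quantile normalization (0.20, adjusted p = 0.1453). WASF3 and LIMK1 did not pass against CTRL miR tumours 2 and 5 alone (-0.25, limma adjusted p = 0.4416, and -0.50, adjusted p = 0.1163) or in set B alone (-0.35, adjusted p = 0.1412, and -0.24, adjusted p = 0.1674).

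**Figure D5:**
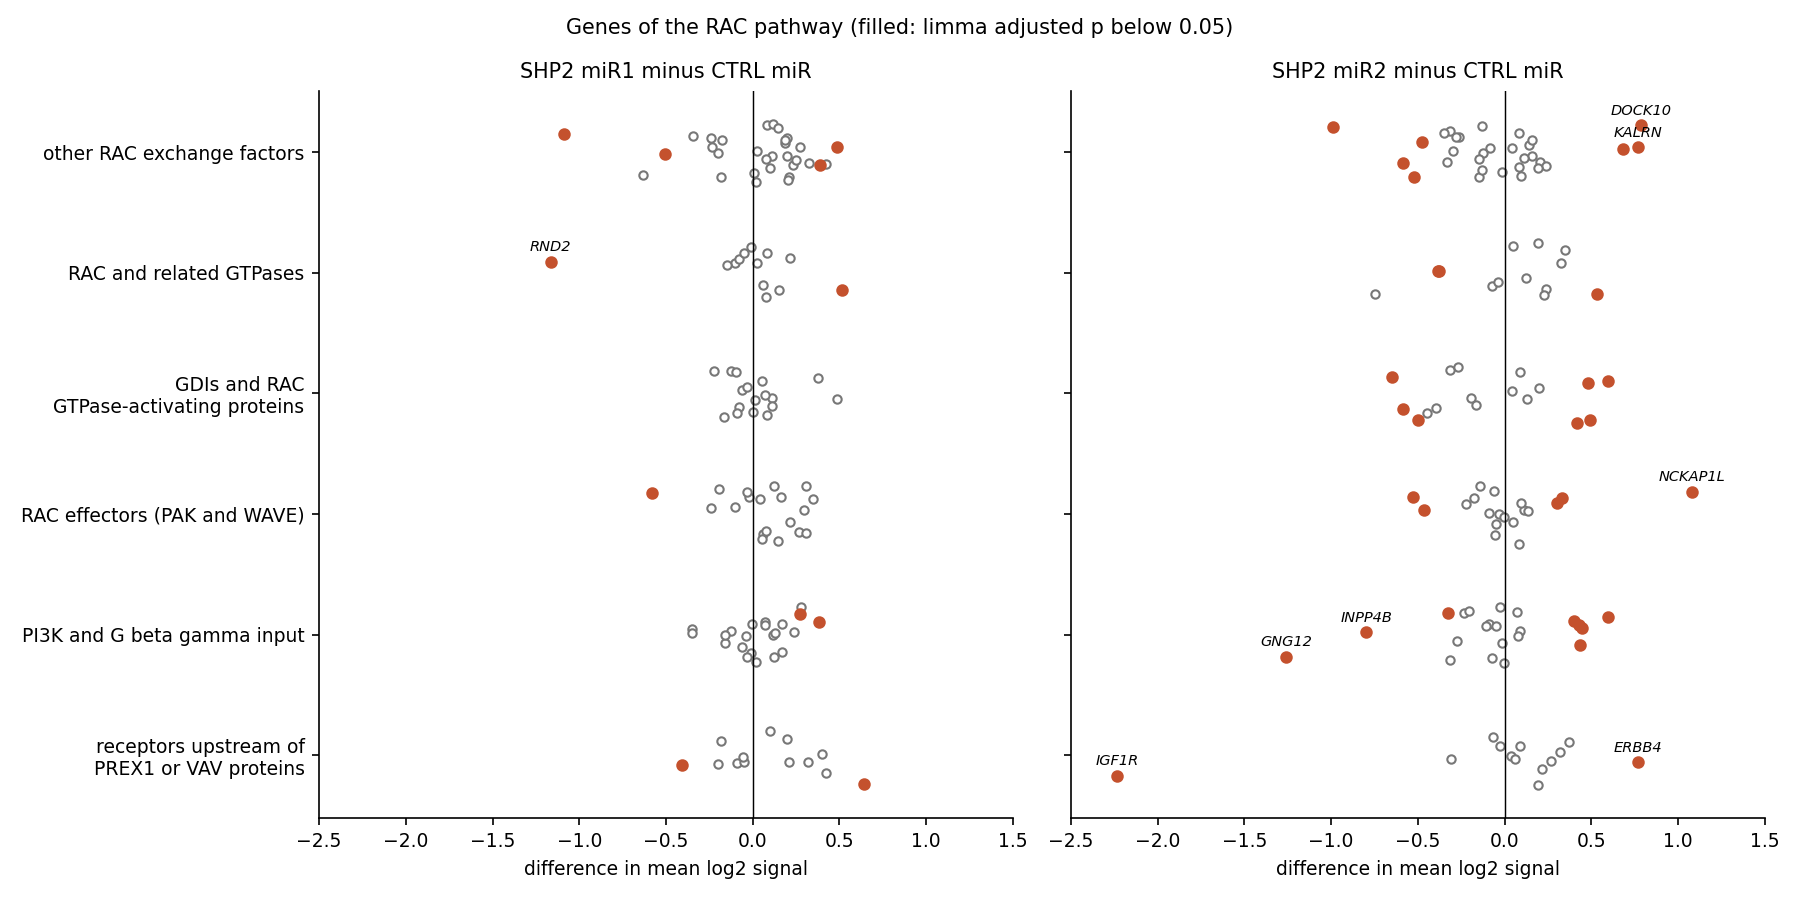
Differences in mean log2 signal (horizontal axis) of the measured genes of 6 pathway lists (rows), for SHP2 miR1 minus CTRL miR on the left and SHP2 miR2 minus CTRL miR on the right. Each point is 1 gene, filled where its limma adjusted p was below 0.05, and named genes of large difference are labelled. IGF1R at -2.23 and GNG12 at -1.26 lie farthest to the left with SHP2 miR2, and NCKAP1L at 1.08 farthest to the right.

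Among the genes described above as known from leukocytes, lymphocytes or blood cells, DOCK2, DOCK10, RAC2, ARHGAP25, PIK3R5 and NCKAP1L rose with SHP2 miR2, ARHGDIB fell and VAV1 did not pass. These genes were picked after their values were seen. Of 15 leukocyte markers, 9 rose for SHP2 miR2 minus CTRL miR, where 11.8% of all genes were called higher, and 1 rose for SHP2 miR1 minus CTRL miR, where 1.38% were. The first count was 1 against CTRL miR tumours 2 and 5 alone and 3 in set B alone or without SHP2 miR2 tumour 1 or 3. It was 4 with the dimmest genes left out, but that setting no longer tested dim markers such as PTPRC, so this count is not out of 15. Their mean log2 signal ran from 4.45 to 4.70 in SHP2 miR1, from 4.61 to 5.05 in SHP2 miR2 and from 4.30 to 4.66 in CTRL miR tumours. PTPRC (CD45), which defines leukocytes, averaged 3.86 in SHP2 miR2 and 3.21 in CTRL miR tumours, where the lower quartile of the arrays was 3.72 to 4.04. The 8 fibroblast markers had means of 5.04 to 5.26 in SHP2 miR1, 5.31 to 5.45 in SHP2 miR2 and 4.74 to 5.16 in CTRL miR tumours, and 5 of them rose with SHP2 miR2. For 8 endothelial markers the means were 4.35 to 4.63, 4.50 to 4.77 and 4.31 to 4.66 in the same order of groups, and 2 rose with SHP2 miR2. Leukocytes and stroma of these tumours come from the mouse while the array is made for human transcripts, and the part of such cells in these results was not tested.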

How the data were processed

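RNA of 16 BT474 tumours was isolated with TRIZOL, and 100 ng of each was hybridised to 1 human gene array (HuGene-1_0-st-v1), per the labels' protocols. The authors deposited 1 log2 signal per transcript cluster and array, and the log2 scale was inferred from the deposited values (1.54 to 13.63, array medians 5.21 to 5.41). R 2.10 and oligo 1.8 are named per the submitters' processing notes, while the sources used here do not give the background correction or normalization. Depth is not defined for arrays, and their number, above all 3 for SHP2 miR2, limits the precision.

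Of 28869 clusters, 19310 have 1 gene symbol, 1752 several and 7807 none in the platform annotation, which can be old. Clusters with 1 symbol were used, with the cluster of highest mean for each of 685 genes that have several (none of the 8 described), which left 18377 genes with no filter on low values. A model of the 3 groups was fitted by lmFit and eBayes of limma 3.58.1 (R 4.3.3), leaving 13 degrees of freedom, p-values were adjusted after Benjamini-Hochberg over all genes, and a gene was called at an adjusted p below 0.05. The fit was tested on simulated data. Plots used matplotlib 3.10.9 in Python 3.11.15.

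The members and lists were chosen with earlier results of these data known. Named genes are the 8 members, PTPN11, at most 4 called genes with the smallest adjusted p per pathway list, the 6 highest and 3 lowest r with PREX1, and 5 measured neighbours on each side in the RefSeq table (GRCh38.p14). IRS4 and PTPRC were added to this rule after their values were seen. Promoter windows were matched by symbol, and 6 of the 8 genes had one used here. Alternatives were quantile normalization, array centring, leaving out genes of low mean, all clusters, array weights, the replicate number or array set as a block, single array sets, subsets of controls, only the groups compared, and each tumour left out. Controls 1, 3, 4 and 6 alone were chosen after seeing the data.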

Additional observations from a re-analysis of the deposited data

Results flagged for a closer look

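PDGFRA, the alpha receptor of platelet-derived growth factor and one of the receptors known to act upstream of PREX1 or VAV proteins, had a log2 signal of 4.91 in SHP2 miR1 tumour 7, while the other 6 SHP2 miR1 tumours ran from 4.24 to 4.51. The gap to the nearest tumour was 0.593 of the range of the group. Of 104 groups examined over 52 genes this was the 1 value that stood apart in this way, and chance alone sets about 1 in 20 groups apart. PDGFRA was lower with SHP2 miR1 than with SHP2 miR2 (-0.46, limma adjusted p = 0.02691), and that call was lost without SHP2 miR2 tumour 1 (adjusted p = 0.1598) or 3 (0.05945), among other settings.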

How the results depend on the processing

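No call of a named gene reversed its direction under any alternative tried, and TIAM1 kept its calls under each of them. The number of the 7 tested genes called for SHP2 miR1 against CTRL miR (0) became 4 with array weights (PREX2, VAV2, TIAM2 and RAC1), 2 with the array set as a block (VAV2 and RAC1), 4 (the same genes) against CTRL miR tumours 1, 3, 4 and 6 alone, and 0 to 3 when each tumour was left out (3 without CTRL miR tumour 2). For SHP2 miR2 against CTRL miR (2) it became 1 against CTRL miR tumours 2 and 5 alone and stayed at 2 to 2 when each tumour was left out. For SHP2 miR1 against SHP2 miR2 (1) it became 2 with quantile normalization, centring or the genes of low mean left out, 4 with array weights, 3 with only the groups compared, and 1 to 2 when each tumour was left out. With the replicate number as a block it became 4 (TIAM1 with PREX2, VAV2 and RAC1). The labels do not say whether the numbers pair the tumours. Of 12 pairs with the same number, 5 had a correlation of deviations over 0.1 (-0.42 to 0.37), and 5 of 15 tumours correlated best with their own number. The 5 pairs over 0.1 were those whose tumours shared an array set, so these correlations cannot tell pairing from array set.

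The count of all genes called depended on the controls and array sets more widely. For SHP2 miR1 minus CTRL miR (874) it was 3371 with array weights, 1 in set B alone, 10 in set A alone, 25 against CTRL miR tumours 2 and 5, 3454 against the other 4, and 233 (without CTRL miR 3) to 1913 (without CTRL miR 2) when each tumour was left out. For SHP2 miR2 minus CTRL miR (5508) the same settings gave 8868 with weights, 2550 in set B, 803 and 8435 with the control subsets, 3366 with only the groups compared and 2391 (without SHP2 miR2 3) to 7739 (without CTRL miR 5) with each tumour left out. For SHP2 miR1 minus SHP2 miR2 (4136) they gave 7180 with weights, 6773 with the replicate block, 2523 with the set block, 972 in set B and 1310 (without SHP2 miR2 3) to 5923 (without SHP2 miR2 2). Centring the arrays moved the share of higher calls to 23.8%, from 39.3%, for SHP2 miR2 minus CTRL miR, and to 84.5%, from 63.5%, for SHP2 miR1 minus SHP2 miR2, whose median over all genes became 0.108. Subsets hold fewer tumours. The cause of the other shifts was not tested.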
